A study of Homo sapiens with 16 samples.

Results

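The 9 genes described here encode the cyclins, kinases and phosphatase that move a cell through G1 and into S phase. They are the D-type cyclins CCND1, CCND2 and CCND3, the E-type cyclins CCNE1 and CCNE2, the kinases CDK4, CDK6 and CDK2, and the phosphatase CDC25A. They were chosen by gene name, and each of the 9 had a row in both count tables, which list 26364 genes. RNA-seq counts were obtained from Ishikawa, an established line from an endometrial adenocarcinoma, and T-47D, an established line from a breast carcinoma. Both lines were kept in medium deprived of hormones and then received 10 nM 17β-estradiol (E2) for 2, 4 or 8 h, or vehicle (0 h). The 8 groups of a line and a time point held 2 replicates each, and the labels do not say that these came from separate cultures, so the p-values below measure the spread between these samples.

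In G1, D-type cyclins bind CDK4 or CDK6 and start the phosphorylation of the retinoblastoma protein, which holds back the E2F transcription factors. E-type cyclins then activate CDK2, and CDC25A removes the phosphates that keep this kinase inactive. Estrogen is a mitogen for hormone-dependent breast and endometrial cells, and CCND1 is a well known target of its receptor in breast cancer cells.

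The libraries held 41177912 to 64148903 counts. Endometrial markers were present in Ishikawa, with 6 of 6 genes at 1 CPM (counts scaled to library size) or more in all 8 libraries and a summed level of 764 to 840 CPM, against 1.33 to 2.38 CPM in T-47D. Of 6 breast luminal markers, 5 reached 1 CPM in all T-47D libraries, and ANKRD30A did not. Their summed level was 8271 to 10113 CPM in T-47D and 67.2 to 89.6 CPM in Ishikawa. Leukocyte markers were under 1 CPM in both lines. Of 3 endothelial markers, PECAM1 and CDH5 were under 1 CPM in both lines, and 1 reached 1 CPM in all Ishikawa libraries. Of 5 fibroblast markers, 2 reached 1 CPM in all libraries of each line, with a summed level of 154 to 277 CPM in Ishikawa and 77.7 to 103 CPM in T-47D, and DCN was under 1 CPM in both. In Ishikawa cells the libraries labelled 4 h and 8 h were close to one another whatever their label. Between 4 h and 8 h, 2 of 15787 genes were called by edgeR with an adjusted p below 0.05, and DESeq2 also called 2. In T-47D, edgeR called 533 genes between 4 h and 8 h. An unadjusted p under 0.05 was reached by 554 genes in Ishikawa and by 2533 in T-47D. For this reason the 4 Ishikawa libraries of 4 h and 8 h were also tested as 1 group, and this pooled comparison is the one led with below.

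Before E2, CCND1 and CDK4 were the most abundant of the 9 transcripts per unit of length in both lines. In Ishikawa cells, CCND1 stood at 117 ± 1.57 CPM per kilobase of merged exons (SD, n = 2) and CDK4 at 111 ± 2.89. CDK2 followed at 49.5 ± 0.614, then CCNE1 at 14.6 ± 0.553, CDC25A at 11.5 ± 0.0531 and CCNE2 at 11.2 ± 1.64. The lowest levels per kilobase were those of CCND3 at 5.21 ± 0.234, CCND2 at 3.24 and CDK6 at 1.95 ± 0.247. The replicates of CDC25A and CCNE2 overlapped, and no other neighbours in this order did.

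In T-47D cells the order was led by CDK4 at 64.5 ± 0.108 CPM per kilobase, followed by CCND1 at 37.1 ± 2.12 and CDK2 at 26.1 ± 0.224. CCND3 at 9.501 ± 0.395 and CCNE2 at 9.39 ± 0.728 came next, and their replicates overlapped. CDC25A stood at 3.97 ± 0.174, CCNE1 at 3.63 ± 0.0676 and CDK6 at 1.09 ± 0.0918, with no overlap between these neighbours, and CCND2 was close to absent. With the length of the longest transcript in place of merged exons, CCND3 rose to 12.5 CPM per kilobase in Ishikawa and 22.9 in T-47D, and CDK4, at 184, stood above CCND1, at 132, in Ishikawa cells.

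**Figure D1:**
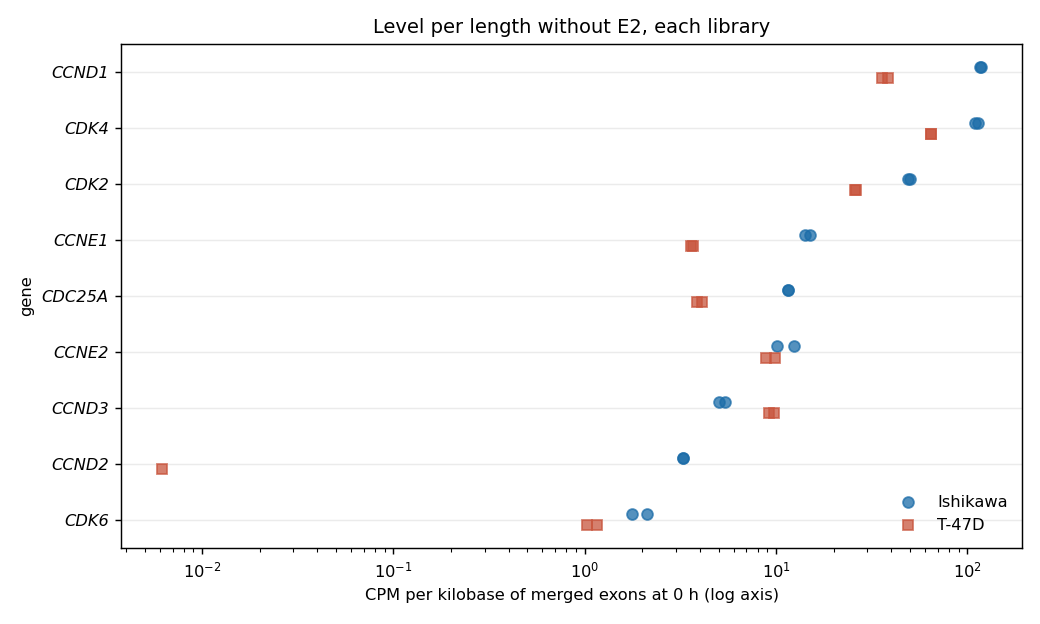
Level of each gene at 0 h in CPM per kilobase of merged exons, on a log axis, with 1 point per library for Ishikawa (circles) and T-47D (squares). Only CCND3 lies to the right in T-47D. The T-47D library with 0 CCND2 counts cannot be drawn on a log axis.

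All 9 genes differed between the lines at 0 h, in a genome where most genes did: 39.5% of 17090 genes tested were higher in T-47D and 42.4% were lower. CCND3 was the 1 member that was higher in T-47D, and the other 8 were lower. The differences are T-47D minus Ishikawa on the log2 scale, from the quasi-likelihood test of edgeR, adjusted by Benjamini-Hochberg over all genes. The difference was largest for CCND2, which was close to absent in T-47D and is given below by its counts. Among the other genes, the differences were -2.01 for CCNE1 (SE 0.09, adjusted p = 4.51e-14), -1.66 for CCND1 (SE 0.05, adjusted p = 3.46e-17) and -1.54 for CDC25A (SE 0.07, adjusted p = 2.86e-14). The kinases lay closer together, at -0.92 for CDK2, -0.84 for CDK6 and -0.78 for CDK4, and CCND3 was higher by 0.87 (SE 0.07, adjusted p = 2.87e-10). CCNE2 showed the smallest difference, at -0.26 (SE 0.09, adjusted p = 0.00977). This last call was lost without Ishikawa 0-h replicate 1 (-0.08, adjusted p = 0.366) or T-47D 0-h replicate 2 (-0.18, adjusted p = 0.123), and with only the 0-h libraries in the fit (adjusted p = 0.0535). The line and the handling of its cultures cannot be told apart in this comparison.

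The members of each family were not equally abundant at 0 h. CCND1 gave 93.3% ± 0.09 of the summed D-type cyclin level per kilobase in Ishikawa and 79.6% ± 1.60 in T-47D, and CCND3 gave 4.14% ± 0.13 and 20.4% ± 1.60. With the longest transcript as the length, the shares moved to 89.0% and 64.5% for CCND1 and to 8.47% and 35.5% for CCND3. Among E-type cyclins, CCNE1 gave 56.6% ± 4.53 of the sum in Ishikawa and 27.9% ± 1.94 in T-47D, the rest being CCNE2. CDK4 made up 98.3% ± 0.26 of the summed CDK4 and CDK6 level in Ishikawa and 98.3% ± 0.14 in T-47D.

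**Figure D2:**
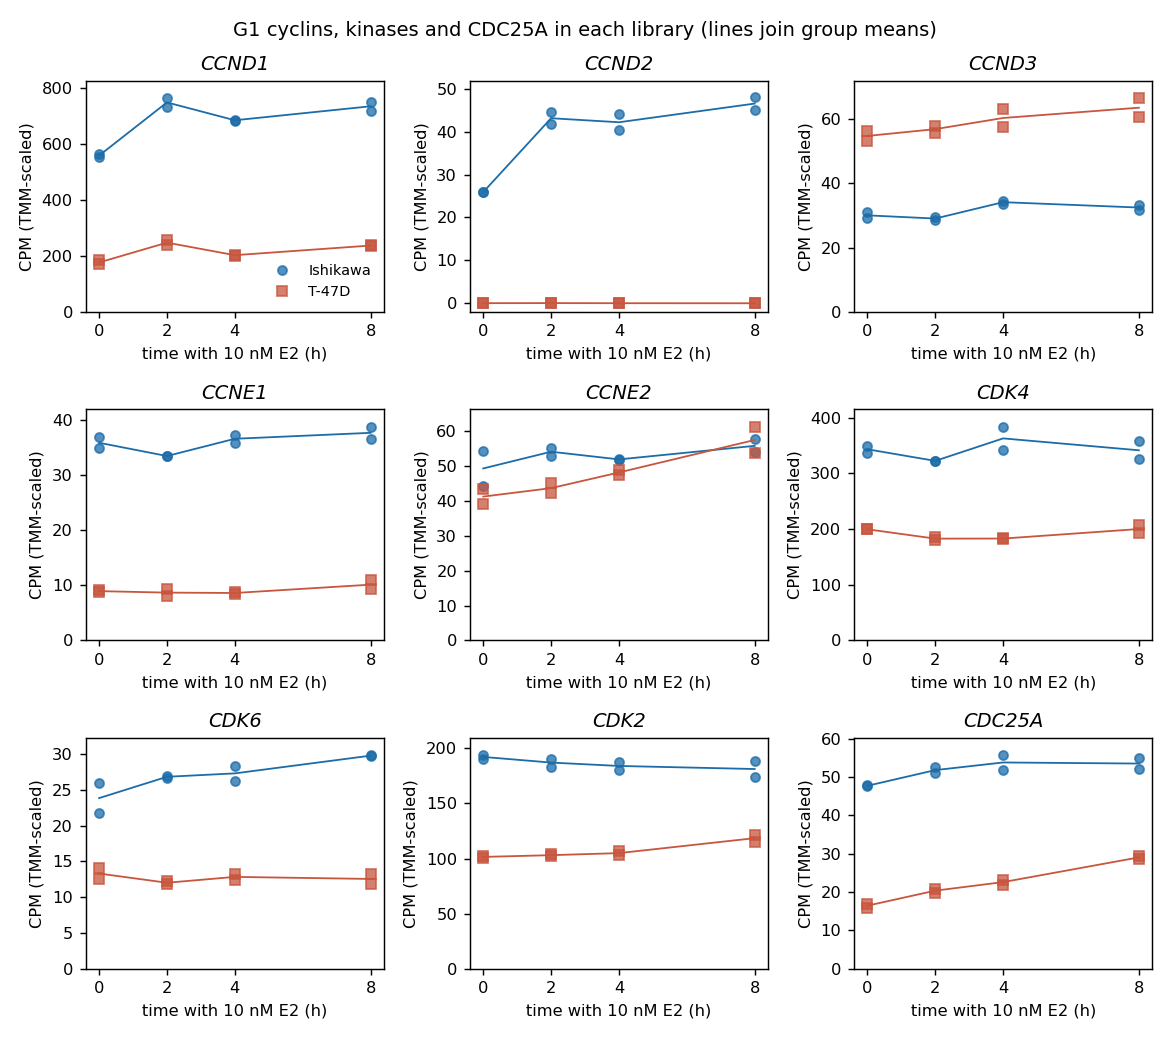
CPM of each gene in all 16 libraries against hours with E2, with Ishikawa as circles, T-47D as squares and lines through the group means. CCND1 and CCND2 step up by 2 h in Ishikawa cells. The mean of CDC25A climbs at each time point in T-47D cells, where the step from 2 h to 4 h was not called.

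CCND1, on chromosome 11 of hg19 from 69455924 to 69469242, encodes cyclin D1, the D-type cyclin most often tied to estrogen response. Its level in Ishikawa cells was 553 and 564 CPM before E2, 733 and 764 after 2 h, 683 and 687 after 4 h, and 718 and 752 after 8 h. In T-47D cells it was 169 and 184 CPM before E2, 238 and 257 after 2 h, 204 and 201 after 4 h, and 236 and 239 after 8 h. Every treated library lay above both 0-h libraries of its line. At 2 h the log2 fold change was 0.43 in Ishikawa (SE 0.05, adjusted p = 6.25e-05) and 0.48 in T-47D (SE 0.05, adjusted p = 1.79e-06). For the pooled 4 and 8 h libraries of Ishikawa it was 0.35 (SE 0.05, adjusted p = 6.98e-05). CCND1 thus gained 34.8% at 2 h in Ishikawa cells, and the difference between the lines in the 2-h change, T-47D minus Ishikawa, was 0.06 (SE 0.07, adjusted p = 0.908).

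In T-47D cells the CCND1 increase was not the same at each time. The log2 fold change against 0 h was 0.19 at 4 h (SE 0.05, adjusted p = 0.0085) and 0.43 at 8 h (SE 0.05, adjusted p = 3.11e-06). The level at 4 h was below that at 2 h by -0.29 (SE 0.05, adjusted p = 0.00184), and the level at 8 h was above that at 4 h by 0.23 (SE 0.05, adjusted p = 0.0118). Of all 15594 genes tested, 3.40% were called between 2 h and 4 h in either direction and 3.42% between 4 h and 8 h. Both comparisons were added after the CCND1 values had been seen. The call at 4 h against 0 h was lost without T-47D 0-h replicate 1 (0.14, adjusted p = 0.0851) or 4-h replicate 1 (0.19, adjusted p = 0.0562).

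CCND2, on chromosome 12 from 4378937 to 4414519, encodes cyclin D2 and showed the largest change of the 9 genes in Ishikawa cells. It was at 25.9 CPM in both 0-h libraries, at 41.7 and 44.5 CPM after 2 h, at 40.4 and 43.98 after 4 h, and at 47.9 and 45.1 after 8 h. The treated libraries lay far above the 0-h pair and close to each other. The log2 fold change was 0.74 at 2 h (SE 0.07, adjusted p = 9.47e-06) and 0.78 for the pooled later libraries (SE 0.07, adjusted p = 9.24e-07), and the pooled libraries differed from 2 h by 0.03 (SE 0.07, adjusted p = 0.834).

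In T-47D cells CCND2 was barely detected. Its libraries held 0 and 2 counts before E2, 4 and 0 after 2 h, 2 and 0 after 4 h, and 0 and 0 after 8 h, so that 5 of 8 libraries held none. At 0 h, the Ishikawa libraries held 2457 CCND2 counts and the T-47D libraries 2, a ratio of 1084 after scaling (95% exact interval 299.8 to 8958, for counting error only). Every CCND2 count in T-47D was even, and if 2 counts stand for 1 read pair this interval is too narrow. The gene did not pass the filter on low counts in T-47D, and no change with E2 was tested there. Its antisense partner CCND2-AS1 had a mean of 0.125 counts per library.

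CCND3, on chromosome 6 from 41902672 to 42018095, encodes cyclin D3. It stood at 29.1 and 31.0 CPM before E2 in Ishikawa cells, and later libraries of that line ran from 28.6 to 34.6 CPM. In T-47D cells it was at 56.3 and 53.1 CPM before E2, 55.8 and 57.9 after 2 h, 63.1 and 57.5 after 4 h, and 66.5 and 60.5 after 8 h. The 8-h libraries lay above both 0-h libraries, with a log2 fold change of 0.21 (SE 0.06, adjusted p = 0.0131). That call was lost without T-47D 0-h replicate 2 (0.18, adjusted p = 0.0937) or 8-h replicate 1 (0.15, adjusted p = 0.111). No Ishikawa comparison of CCND3 passed, the pooled value being 0.15 (SE 0.06, adjusted p = 0.0978).

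Of the E-type cyclins, which activate CDK2, CCNE2 rose in T-47D cells. CCNE1, on chromosome 19 from 30302898 to 30315219, passed in no comparison with 0 h in either line. It ran from 33.5 to 38.8 CPM over the 8 Ishikawa libraries and from 7.99 to 10.9 CPM over the 8 T-47D libraries, and its log2 fold change at 8 h in T-47D was 0.18 (SE 0.12, adjusted p = 0.277). CCNE2, on chromosome 8 from 95891998 to 95908906, was at 43.6 and 39.0 CPM before E2 in T-47D, 45.1 and 42.3 after 2 h, 49.0 and 47.4 after 4 h, and 53.7 and 61.4 after 8 h. The 4-h and 8-h libraries did not overlap those of 0 h, while those of 2 h did. The log2 fold change was 0.07 at 2 h (SE 0.07, adjusted p = 0.590), 0.22 at 4 h (SE 0.07, adjusted p = 0.0334) and 0.48 at 8 h (SE 0.07, adjusted p = 4.25e-05). The value at 8 h was also above that at 2 h, by 0.40 (SE 0.07, adjusted p = 0.000502). The difference between the changes of CCNE1 and CCNE2 was not tested.

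CCNE2 in Ishikawa cells rested on the 0-h libraries. They stood at 54.5 and 44.3 CPM, and the treated libraries ran from 51.9 to 57.7 CPM, so that the groups overlapped through replicate 1. The pooled log2 fold change was 0.13 (SE 0.07, adjusted p = 0.204), and without Ishikawa 0-h replicate 1 it was 0.28 (adjusted p = 0.00945). In T-47D, the call at 4 h was lost without 0-h replicate 2 (0.15, adjusted p = 0.241), 4-h replicate 1 (0.20, adjusted p = 0.160) or 4-h replicate 2 (0.25, adjusted p = 0.0554), and that at 8 h held without any 1 library. CCNE2 overlaps INTS8 and NDUFAF6, which lie on the opposite strand, and the strand setting of the counting is not given. At 8 h in T-47D, INTS8 changed by 0.07 (SE 0.05, adjusted p = 0.351) and NDUFAF6 by -0.05 (SE 0.08, adjusted p = 0.689).

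Of the kinases, CDK2 rose at 8 h in T-47D cells. CDK2, on chromosome 12 from 56360565 to 56366573, is the partner of the E-type cyclins. In T-47D cells it was at 102 and 101 CPM before E2, 104 and 102 after 2 h, 107 and 103 after 4 h, and 115 and 122 after 8 h. Only the 8-h libraries stood clear of the rest. The log2 fold change at 8 h was 0.22 against 0 h (SE 0.05, adjusted p = 0.0014), and it was 0.21 against 2 h (SE 0.05, adjusted p = 0.00467). In Ishikawa cells CDK2 ran from 174 to 194 CPM, and no comparison passed (-0.07 pooled, SE 0.05, adjusted p = 0.279). The call against 2 h in T-47D was lost without 2-h replicate 2 (0.19, adjusted p = 0.0730). CDK2 shares its locus with PMEL on the opposite strand, which had a mean of 268 counts per library beside 7038 for CDK2 and changed by 0.05 at 8 h in T-47D (SE 0.14, adjusted p = 0.849).

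CDK4, on chromosome 12 from 58141510 to 58149796, encodes the main partner of D-type cyclins by level in both lines. It was at 199.8 and 199 CPM before E2 in T-47D, 185 and 180.4 after 2 h, 184 and 182 after 4 h, and 207 and 193 after 8 h. The libraries of 2 h and 4 h lay below those of 0 h, and the 8-h pair lay on either side of them. Its log2 fold change was -0.13 at 2 h (SE 0.04, adjusted p = 0.0667), -0.13 at 4 h (SE 0.04, adjusted p = 0.0412) and 0.00 at 8 h (SE 0.04, adjusted p = 0.966), and the rise from 2 h to 8 h was 0.14 (SE 0.04, adjusted p = 0.0395). Both calls are weak: the one at 4 h was lost without any 1 of the 6 libraries of 0 h, 2 h and 4 h (adjusted p = 0.0816 to 0.230), and the one from 2 h to 8 h without any library but 8-h replicate 2 (adjusted p = 0.0518 to 0.300). The 2-h value in T-47D passed under DESeq2 (-0.13, adjusted p = 0.047). In Ishikawa cells CDK4 ran from 322 to 384 CPM and did not pass (0.04 pooled, SE 0.06, adjusted p = 0.666). TSPAN31, which overlaps CDK4 on the opposite strand with a mean of 1721 counts beside 12745, changed by -0.13 at 4 h (SE 0.05, adjusted p = 0.102) and by -0.21 at 8 h (SE 0.05, adjusted p = 0.00824) in T-47D.

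CDK6, on chromosome 7 from 92234235 to 92465887, encodes the other kinase of D-type cyclins and rose in Ishikawa cells. It was at 26.0 and 21.7 CPM before E2, 26.7 and 26.9 after 2 h, 26.3 and 28.3 after 4 h, and 29.9 and 29.7 after 8 h. All treated libraries lay above both 0-h libraries, the closest being 4-h replicate 1. The log2 fold change was 0.26 for the pooled 4 and 8 h libraries (SE 0.08, adjusted p = 0.0232), a call that was lost without 0-h replicate 2 (0.14, adjusted p = 0.337), 8-h replicate 1 (0.24, adjusted p = 0.0535) or 8-h replicate 2 (0.24, adjusted p = 0.0646). In T-47D cells CDK6 ran from 11.8 to 14.1 CPM, with a log2 fold change of -0.08 at 8 h (SE 0.10, adjusted p = 0.575).

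CDC25A, on chromosome 3 from 48198636 to 48229907, encodes the phosphatase that activates the cyclin-bound kinases, and it showed the largest change of the 8 genes tested in T-47D cells. It was at 15.96 and 17.0 CPM before E2, 20.9 and 19.8 after 2 h, 23.3 and 22.0 after 4 h, and 29.5 and 28.7 after 8 h. The pairs of replicates did not overlap between any time points. The log2 fold change was 0.30 at 2 h (SE 0.08, adjusted p = 0.0196), 0.45 at 4 h (SE 0.08, adjusted p = 0.00033) and 0.82 at 8 h (SE 0.08, adjusted p = 2.46e-07). From 2 h to 8 h it gained a further 0.52 (SE 0.08, adjusted p = 0.000107). Between 2 h and 4 h it was not called, and from 4 h to 8 h it gained 0.37 (SE 0.07, adjusted p = 0.00921). These 2 comparisons of neighbouring times were added after values had been seen, and 3.42% of all genes were called between 4 h and 8 h in either direction. The call at 2 h was lost without 0-h replicate 1 (0.27, adjusted p = 0.0972), 2-h replicate 1 (0.27, adjusted p = 0.174) or 2-h replicate 2 (0.34, adjusted p = 0.0526).

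In Ishikawa cells CDC25A was at 47.6 and 47.9 CPM before E2, 51.0 and 52.7 after 2 h, 55.8 and 51.9 after 4 h, and 52.0 and 55.1 after 8 h. The treated libraries lay above the 0-h pair, by a small margin. The pooled log2 fold change was 0.17 (SE 0.06, adjusted p = 0.0344), and the call was lost without any 1 of 6 of the 8 libraries (adjusted p = 0.0588 to 0.121) and with no filter on low counts (adjusted p = 0.0712). At 8 h, the level in T-47D had reached 29.1 ± 0.591 CPM, against 47.7 ± 0.220 CPM in Ishikawa before E2.

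The promoters of 3 of these genes are printed to show the letters in front of a member that rose in T-47D (CDC25A), of the most abundant kinase (CDK4) and of the E-type cyclin that passed in no comparison with 0 h (CCNE1). The sequences come from the RefSeq promoter table (GRCh38.p14), run 5′ to 3′ on the strand of the gene from 250 bases before the start to 50 bases after it, and were each found at 1 place of GRCh37. The CDC25A promoter lies at chr3:48229858-48230157 on the minus strand, that of CDK4 at chr12:58146044-58146343 on the minus strand, and that of CCNE1 at chr19:30302648-30302947 on the plus strand. Capitals mark exact matches on either strand to a set of short motifs. E2F factors were searched as TTTCCCGC, TTTGCCGC, TTTCGCGC and TTTGGCGC. SP factors were searched by the letters GGGCGG. The E-box, which MYC can bind, was searched by the letters CACGTG. The cyclic AMP response element (CRE) was searched as TGACGTCA. The element of AP-1 was searched as TGACTCA with its variant TGAGTCA. The CCAAT box was searched by its name. The TATA box was searched by the letters TATAAA.
CDC25A: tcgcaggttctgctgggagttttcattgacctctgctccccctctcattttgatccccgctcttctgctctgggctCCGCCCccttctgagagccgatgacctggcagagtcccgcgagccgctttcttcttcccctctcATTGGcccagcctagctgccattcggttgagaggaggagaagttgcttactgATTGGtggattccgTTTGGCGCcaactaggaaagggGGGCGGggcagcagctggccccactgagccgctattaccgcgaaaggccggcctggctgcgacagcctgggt
CDK4: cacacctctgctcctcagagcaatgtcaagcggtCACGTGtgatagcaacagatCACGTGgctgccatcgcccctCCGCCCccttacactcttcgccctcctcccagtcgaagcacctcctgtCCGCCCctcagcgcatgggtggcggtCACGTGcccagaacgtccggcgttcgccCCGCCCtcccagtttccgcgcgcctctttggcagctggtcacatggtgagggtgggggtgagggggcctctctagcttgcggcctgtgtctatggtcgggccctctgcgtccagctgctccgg
CCNE1: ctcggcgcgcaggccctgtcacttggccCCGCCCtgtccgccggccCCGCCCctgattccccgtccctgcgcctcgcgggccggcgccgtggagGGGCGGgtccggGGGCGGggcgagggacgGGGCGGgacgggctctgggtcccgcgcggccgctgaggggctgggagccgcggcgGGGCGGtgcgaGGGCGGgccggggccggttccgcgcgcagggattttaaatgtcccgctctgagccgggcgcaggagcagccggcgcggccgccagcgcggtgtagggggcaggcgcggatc
The CDC25A promoter held 1 E2F match, TTTGGCGC, 44 bases before the start, beside 2 CCAAT and 2 SP matches. That of CDK4 held 3 E-boxes and 3 SP matches, and that of CCNE1 held 7 SP matches and no E2F match. No matches overlapped each other in these 3 sequences.

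The table held 8 promoters of 5 members, with 3 for CCND3 and 2 for CDK6, and none was listed there for CCND1, CCND2, CCNE2 and CDK2. An E2F match was present in 1 of the 8, against 3.31% of all 35116 promoters of the table, and SP matches were present in 6 of the 8, against 45.0%. CCAAT occurred in 3 of the 8 (34.6% of all) and the E-box in 2 of the 8 (7.26% of all). The AGGTCA letters bound by nuclear receptors were not put in capitals. They occurred in the CDC25A promoter alone among the 8, at 2 places, and in 13.8% of all promoters. CRE, AP-1 and TATA matches and the estrogen response palindrome (GGTCANNNTGACC) were in 0 of the 8, against 1.85%, 4.95%, 11.5% and 0.0570% of all promoters. These matches are a description of the letters in the window.

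Counted over the members, 2 of 9 were called up and 0 down at 2 h in Ishikawa cells, CCND1 and CCND2, beside 2.61% of all 15787 genes called up and 1.74% down. The same pair was called at 4 h, beside 7.66% of all genes up and 6.60% down, and CDK6 joined them at 8 h, beside 12.0% up and 10.1% down. The call of CDK6 at 8 h (0.32, SE 0.09, adjusted p = 0.0188) was lost without 0-h replicate 2 (adjusted p = 0.172), 8-h replicate 1 (adjusted p = 0.0596) or 8-h replicate 2 (adjusted p = 0.0809). In the pooled later libraries 4 of 9 were called up, CCND1, CCND2, CDK6 and CDC25A, beside 13.5% up and 12.2% down. Without Ishikawa 0-h replicate 1, CCNE2 and CDK6 were also called at 2 h and at 4 h and CCNE2 at 8 h (0.33, adjusted p = 0.00481), which made 4 of 9 each time. The pooled count fell to 2 without 0-h replicate 2 or 8-h replicate 2. The median log2 fold change of the 9 members in the pooled comparison was 0.15, beside -0.00 for all genes.

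In T-47D cells 2 of 8 members were called up at 2 h, CCND1 and CDC25A, beside 4.90% of all 15594 genes up and 4.40% down. At 4 h, CCND1, CCNE2 and CDC25A were called up and CDK4 down, beside 11.1% up and 10.4% down. At 8 h, 5 of 8 were called up, CCND1, CCND3, CCNE2, CDK2 and CDC25A, beside 15.4% up and 14.3% down, and the median of the 8 was 0.22, beside 0.00 for all genes. The 2-h count fell to 1 without 0-h replicate 1, 2-h replicate 1 or 2-h replicate 2, and the 4-h count fell to 2 without either 0-h replicate or 4-h replicate 2 and to 1 without 4-h replicate 1.

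**Figure D3:**
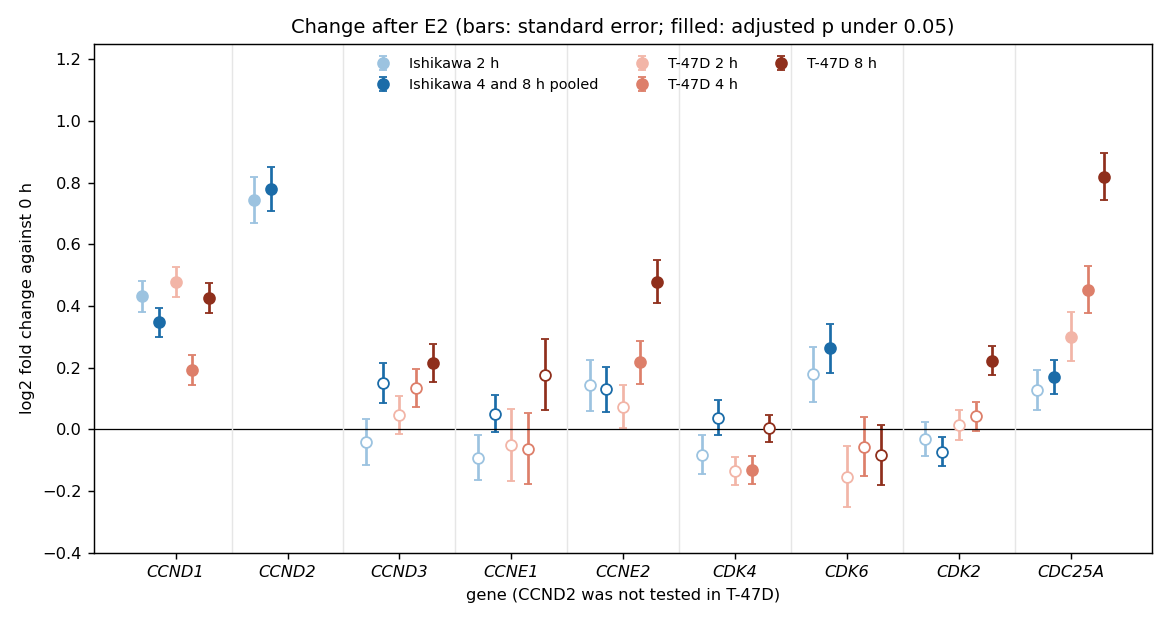
Log2 fold change of each gene against 0 h, with bars for the standard error derived from the F statistic of edgeR. Filled points passed an adjusted p of 0.05 and open points did not. CCND1 is up in all 5 comparisons shown, and the T-47D values of CDC25A and CCNE2 are highest at 8 h.

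Later time points were also compared with 2 h. In Ishikawa cells 0 of 9 members were called between 2 h and the pooled later libraries by edgeR, beside 4.84% of all genes in either direction. CCND3 and CCNE1 had an unadjusted p under 0.05, at 0.19 (SE 0.06, adjusted p = 0.108) and 0.14 (SE 0.06, adjusted p = 0.210). In T-47D cells 4 of 8 were higher at 8 h than at 2 h, CCNE2, CDK4, CDK2 and CDC25A, beside 9.53% of all genes up and 7.23% down. CCND1 was not among them, at -0.05 (SE 0.05, adjusted p = 0.521). This count was 2 without 2-h replicate 2.

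The change with E2 differed between the lines for CDC25A. For the later times, 4 h and 8 h were taken as 1 group in each line. In T-47D, where 533 genes were called between 4 h and 8 h, this group also spans a change over time. A line difference at 8 h alone was not tested. CCND2 is counted among the 9 members here, at the later times and at 2 h. It passed the filter of this fit through Ishikawa and held at most 4 counts in any T-47D library. A line difference in its change could therefore not be measured. In the pooled comparison 1 of 9 members, CDC25A, was called, beside 4.92% of all genes called up and 4.04% down. The change of CDC25A was larger in T-47D by 0.48 on the log2 scale (SE 0.13, adjusted p = 0.0191). The difference was lost without Ishikawa 0-h replicate 2 (0.47, adjusted p = 0.0633) or T-47D 0-h replicate 1 (0.43, adjusted p = 0.120). CDK6 stood at -0.33 (SE 0.12, adjusted p = 0.0986), and passed under DESeq2 (-0.36, adjusted p = 0.0336) and without Ishikawa 0-h replicate 1 (-0.48, adjusted p = 0.0199). CDK2 stood at 0.21 (SE 0.08, adjusted p = 0.106) and passed without T-47D 4-h replicate 2 (0.25, adjusted p = 0.0434), while CCNE2 stood at 0.23 (SE 0.13, adjusted p = 0.328). CCND1 differed by -0.03 (SE 0.09, adjusted p = 0.926). At 2 h, 0 of 9 members were called by edgeR, beside 2.67% of all genes in either direction, and CDK6 alone had an unadjusted p under 0.05 (-0.32, SE 0.14, adjusted p = 0.395).

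Genes that act with the 9 members were counted from lists of pathway genes. Of 20 S phase genes, most of which license origins, copy DNA or make nucleotides, 10 were called up at 4 h and 15 at 8 h in T-47D cells, with 0 down, beside 11.1% and 15.4% of all genes called up. The median log2 fold change at 8 h was 0.44, beside 0.00 for all genes. At 2 h in T-47D the counts were 0 up and 0 down, beside 4.90% and 4.40% of all genes. In the pooled Ishikawa libraries 0 were up and 1, MCM5, was down, beside 13.5% and 12.2% of all genes, with a median of -0.02. MCM10, which helps start the replication fork, was at 39.4 and 37.0 CPM before E2 in T-47D and at 64.8 and 66.1 after 8 h, a log2 fold change of 0.78 (SE 0.06, adjusted p = 9.3e-09). CDC6, which loads the replicative helicase, changed by 0.70 (SE 0.06, adjusted p = 2.97e-08), MCM6 by 0.63 (SE 0.05, adjusted p = 1.71e-08) and MCM2 by 0.61 (SE 0.05, adjusted p = 3.9e-08), both subunits of that helicase. In the pooled 4 and 8 h comparison between lines, 10 of the 20 were called higher in T-47D and 0 lower, beside 4.92% and 4.04% of all genes. MCM10 differed by 0.46 (SE 0.13, adjusted p = 0.0322) and CDC6 by 0.44 (SE 0.11, adjusted p = 0.0118).

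Of 10 E2F family genes and partners, 6 were called up and 1 down at 8 h in T-47D, beside 15.4% of all genes up and 14.3% down. In the pooled Ishikawa libraries 2 were up and 4 down, beside 13.5% and 12.2% of all genes. E2F5 and E2F6 were the pair called up in both lines, E2F5 by 0.54 at 8 h in T-47D (SE 0.09, adjusted p = 0.000217) and by 0.35 in the pooled Ishikawa libraries (SE 0.08, adjusted p = 0.00625). E2F1, an activator of S phase genes, was at 59.6 and 53.8 CPM before E2 in T-47D and at 91.9 and 83.8 after 8 h, a log2 fold change of 0.63 (SE 0.06, adjusted p = 2.45e-07). In Ishikawa it was at 58.2 and 61.7 CPM before E2 and between 47.5 and 55.8 CPM at 4 and 8 h, a pooled change of -0.18 (SE 0.06, adjusted p = 0.0481). Of the 3 pocket proteins, which bind E2F, RBL1 and RB1 were up at 8 h in T-47D, beside 15.4% of all genes. They changed by 0.50 (SE 0.08, adjusted p = 0.000101) and 0.22 (SE 0.05, adjusted p = 0.00286). None of the 3 was called in Ishikawa, where 13.5% of all genes were up and 12.2% down in the pooled libraries.

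Of 7 inhibitors of the kinases, 4 were called down at 8 h in T-47D and 2 in the pooled Ishikawa libraries, with 0 up, beside 14.3% and 12.2% of all genes called down. The medians of the 7 were -0.32 and -0.10. CDKN2B, an inhibitor of CDK4 and CDK6, was at 101 and 112 CPM before E2 in T-47D, 85.8 and 85.7 after 2 h, 68.5 and 70.7 after 4 h, and 63.6 and 66.8 after 8 h. At 8 h it had fallen, with a log2 fold change of -0.71 (SE 0.06, adjusted p = 2.89e-08). Over the pooled 4-h and 8-h libraries, the fall was larger in T-47D than in Ishikawa, by -0.39 (SE 0.09, adjusted p = 0.00951). CDKN1A and CDKN2A changed by -0.36 (SE 0.06, adjusted p = 0.00011) and -0.32 (SE 0.06, adjusted p = 0.000355) at 8 h in T-47D. CDKN1C changed by -0.61 in the pooled Ishikawa libraries (SE 0.13, adjusted p = 0.00245), and it was the last of the 4 called down at 8 h in T-47D (-1.36, SE 0.38, adjusted p = 0.0115), where it was under 1 CPM in every library and held 11 and 22 counts after 8 h.

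CDC25B, a phosphatase related to CDC25A that acts on kinases of later phases, fell in Ishikawa cells. It was at 166 and 178 CPM before E2 and at 126 to 132 CPM at 4 and 8 h, with a pooled log2 fold change of -0.42 (SE 0.05, adjusted p = 1.07e-05). Of the 7 kinase activators and inhibitory kinases, 3 were down in the pooled Ishikawa libraries, beside 12.2% of all genes. In T-47D, 1 was up and 2, CDC25B and PKMYT1, were down at 4 h, beside 11.1% and 10.4% of all genes, and 2 were up at 8 h, beside 15.4%. Of 11 genes for the degradation of G1 cyclins and inhibitors, 3 were up in the pooled Ishikawa libraries, beside 13.5% of all genes, and 3 at 8 h in T-47D, beside 15.4%. CRYAB was the 1 called down in T-47D at that time, beside 14.3% of all genes. Of 4 G2/M genes, CDK1 alone was called up in the pooled Ishikawa libraries (0.19, SE 0.07, adjusted p = 0.0442), beside 13.5% of all genes. At 8 h in T-47D, CCNF alone of the 4 was called down (-0.25, SE 0.05, adjusted p = 0.00097), beside 14.3%. MYC, a transcription factor of cell growth, rose in T-47D from 5.70 and 4.83 CPM before E2 to 27.3 and 33.0 after 2 h (2.51, SE 0.11, adjusted p = 1.64e-11), and it also rose in the pooled Ishikawa libraries (0.48, SE 0.05, adjusted p = 7.48e-06). ESR1, the estrogen receptor, fell by 0.45 in the pooled Ishikawa libraries (SE 0.05, adjusted p = 3.05e-06) and rose by 0.29 at 8 h in T-47D (SE 0.04, adjusted p = 5.68e-05).

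**Figure D4:**
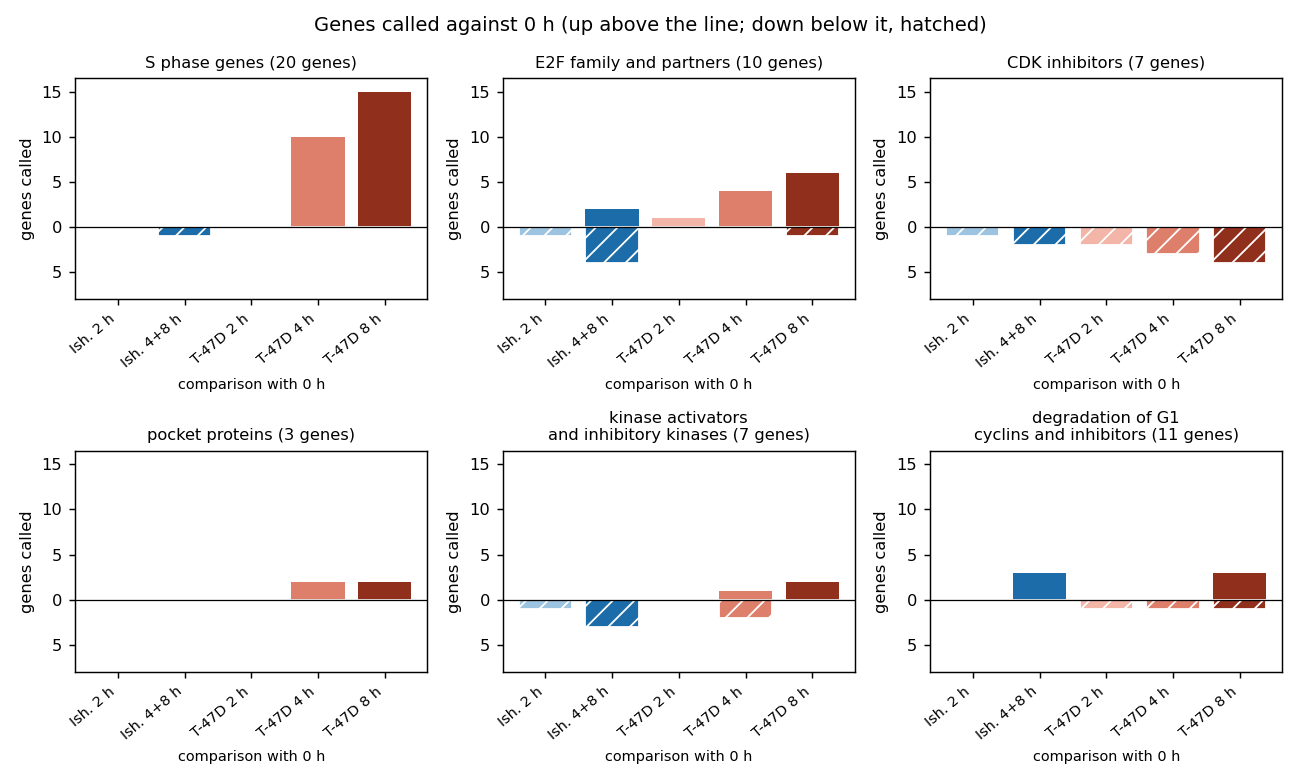
Number of genes called against 0 h in 6 lists of pathway genes, with genes called up above the line and genes called down below it (hatched). The S phase list shows 10 and 15 genes up at 4 h and 8 h in T-47D cells and none up in Ishikawa cells.

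The genes most like CCND1, CCNE2 and CDC25A were taken by the correlation of log2 CPM over the 16 libraries after the mean of each line was subtracted, among 12943 genes. For CCND1 they were RARA (Pearson's r = 0.90), NRIP1 (0.90) and FHL2 (0.89). For CCNE2 they were TOPBP1 (0.96), DSG2 (0.95) and VRK1 (0.95), and for CDC25A they were MAN1A1, PDHB and FARSB (each 0.95). Within a line, r differed most for MAN1A1 with CDC25A, at 0.71 in Ishikawa and 0.97 in T-47D. VRK1 with CCNE2 came next, at 0.82 and 0.98. With CCND1, NRIP1 (0.95 and 0.90) and RARA (0.91 and 0.90) were higher in Ishikawa. The libraries share their time points and scaling, so these values describe a shared time course and carry no test.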

How the data were processed

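RNA-seq libraries were made from poly(A) RNA of Ishikawa and T-47D cells with a directional kit. HISAT2 served the authors for alignment to hg19 and featureCounts for counting over UCSC Known Genes, and they deposited whole-number read counts per gene, with no normalization, in 1 table per line. Tool versions and the settings for strand, read pairs and multiple hits are not given in the sources used here. Among counts from 1 to 10, 71.2% to 74.6% were even.

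From these counts, genes were filtered with filterByExpr, scaled by TMM and tested with the quasi-likelihood F-test of edgeR 4.0.16 in R 4.3.3, with Benjamini-Hochberg adjustment over all genes tested and a threshold of 0.05. Changes within a line came from a fit of its 8 libraries, and differences between lines from a fit of all 16. CPM values use 1 TMM scaling over the 16 libraries. DESeq2 1.42.0, RLE scaling, other filters and thresholds, a replicate block and the removal of each library were alternatives. On simulated data with log2 changes of 1, up or down, the edgeR step recovered 92.5% of 200 changed genes for Ishikawa (15580 genes) and 97.0% for T-47D (15414 genes). Of its calls, 10.6% and 7.62% were false, above the 5% that the threshold sets. Each change of a member against 0 h was smaller than 1, and the recovery of smaller changes was not simulated. Gene positions and lengths came from GENCODE v44 lifted to GRCh37. All members were named, and from each list at most the 4 genes with the largest change among those called at 2 h or at the latest comparison in either line, with a mean count of at least 50. MCM5, whose list had 1 gene called down in Ishikawa, was named after its value was seen. The members and the lists were chosen with earlier results of these data known.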

Additional observations from a re-analysis of the deposited data

Results flagged for a closer look

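The change of CDC25A at 4 and 8 h differed between the lines by a test of the difference itself, at 0.48 on the log2 scale, T-47D minus Ishikawa (SE 0.13, edgeR adjusted p = 0.0191). This difference was 0.47 without Ishikawa 0-h replicate 2 and 0.43 without T-47D 0-h replicate 1, and it was called in neither fit. CDC25A was higher in all 4 T-47D libraries of 4 h and 8 h than in both 0-h libraries, and likewise in all 4 such libraries of Ishikawa. With 2 replicates a group, single libraries could not be checked against the spread of their group.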

How the results depend on the processing

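Replicate numbers did not pair the libraries: deviations of same-numbered libraries correlated at -0.114 to 0.0540 in Ishikawa and -0.0547 to 0.0596 in T-47D. With the replicate block, 3 members in place of 4 were called at 4 h in T-47D (CCNE2, adjusted p = 0.051). Between 4 h and 8 h in T-47D, a comparison added after values had been seen, 4 of 8 members were called up. These were CCND1, CCNE2, CDK2 and CDC25A, beside 3.42% of all genes in either direction. With the replicate block, CCNE2 (adjusted p = 0.071) and CDK2 (adjusted p = 0.0582) were lost there.

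Leaving out 1 library at a time gave 2 to 4 members called at 2 h, at 4 h, at 8 h and in the pooled comparison in Ishikawa, 1 to 3 at 2 h, 1 to 4 at 4 h and 2 to 5 between 2 h and 8 h in T-47D, and 0 to 2 for the pooled difference between lines. An adjusted p under 0.01 gave 2 in the pooled Ishikawa comparison, 1 at 2 h and 2 at 4 h in T-47D, and 0 for the difference between lines. An adjusted p under 0.1 gave 4 at 4 h in Ishikawa and 2 for the difference between lines, as did DESeq2 for the latter (2). All 16 libraries in 1 fit gave 2 at 4 h in T-47D. The cause was not tested.

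Signs turned only for uncalled values of at most 0.13. Without 1 library, these ran in Ishikawa from -0.088 to 0.012 (CCND3, 2 h), -0.0056 to 0.081 (CCNE1, 4 h), -0.05 to 0.24 (CCNE2, 4 h), -0.10 to 0.067 (CDK4, 8 h), -0.0055 to 0.28 (CCNE2, pooled), -0.0030 to 0.072 (CDK4, pooled), and, against 2 h, -0.0040 to 0.079 (CCND2) and -0.045 to 0.013 (CCNE2). In T-47D they ran from -0.16 to 0.061 (CCNE1, 2 h), -0.14 to 0.040 (CDK6, 4 h), -0.043 to 0.058 (CDK4, 8 h), -0.17 to 0.011 (CDK6, 8 h) and -0.014 to 0.14 (CDK6, 8 h against 2 h). Between lines they ran from -0.060 to 0.17 (CCNE1, 2 h), -0.24 to 0.090 (CCNE2, 2 h), -0.087 to 0.029 (CCND1, pooled), -0.019 to 0.072 (CCND3, pooled) and -0.070 to 0.063 (CCNE1, pooled). CDK4 at 8 h in T-47D was -0.0026 with only the time points compared. The pooled line difference was -0.0071 under DESeq2 and -0.0063 under RLE for CCND3, and -0.024 under DESeq2, -0.023 under RLE and -0.0016 with no filter for CCNE1.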
